A study of Mus musculus with 8 samples.

Results

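The chromatin contacts described here are those of the DNA to the left of Kcnj2, the side that carries Map2k6 and Kcnj16, with itself and with the domain that starts at Kcnj2. The assay was capture Hi-C: DNA ends that lay close together in fixed nuclei are ligated, fragments of a chosen region are enriched with designed baits, and each read pair that joins distant places counts as 1 contact. The map is divided into bins of 10 kb. Members were all bin pairs separated by 20 kb or more that had 1 bin in the left side, chr11:110200001-110910000 (mouse build mm9, 71 bins), and the other in the left side or in the Kcnj2 domain, chr11:110910001-111380000 (47 bins). This gave 5751 of the 171405 bin pairs at that distance on the map, of which 2415 lay within the left side and 3336 joined it to the Kcnj2 domain. Between 5729 (InvC∆Bor) and 5746 (∆BorC1-4) of them held at least 1 read pair, and no filter on low values removed any member. The choice used positions only and no measured value. At the right end of the Kcnj2 domain lies the boundary towards Sox9 that the study edited, so the border at Kcnj2 is the unedited left border of the same domain, and the question is how far it changes when the right one is edited.

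The tissue was fore- and hindlimb buds of E12.5 mouse embryos, pooled from 3 to 8 embryos, on a G4 embryonic stem cell background. All 8 libraries were homozygous mutants made by CRISPR/Cas9, 1 library per genotype: ∆BorC1, ∆BorC1-2, ∆BorC1-4 and ∆CTCF, together called the deletion libraries, as well as InvIntra, InvC, InvC∆Bor and BorKnockIn. By their names, BorKnockIn carries an inserted boundary, InvC and InvIntra an inversion, and InvC∆Bor an inversion and a deletion. The labels give these names and no breakpoints, and the wildtype and 1 more mutant were not analysed here. The boundary bin at 111.39 Mb, 1 bin to the right of the Kcnj2 domain, held 4, 0, 8 and 1 raw contacts in ∆BorC1, ∆BorC1-2, ∆BorC1-4 and ∆CTCF against 28151 in InvIntra, so InvIntra serves as the comparator with DNA in that bin. It is a mutant too, by its name with an inversion, whose position the labels do not give. BorKnockIn held 13844 contacts in that bin, InvC 21716 and InvC∆Bor 12924. These counts are not scaled for depth. Relative to the library's own median bin they were 81.2% in BorKnockIn, 145.9% in InvC and 142.1% in InvC∆Bor, beside 149.5% in InvIntra. Such counts do not show where that DNA lies in an edited chromosome, or whether the bin holds the boundary sequence in each library. BorKnockIn positions were offset by 1 bin on the right flank, as given below, and where that offset starts was not tested.

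Mammalian chromosomes fold into topologically associating domains, within which contacts are more frequent than between them. Many domain borders carry binding sites of CTCF, a zinc finger protein that stops the ring-shaped cohesin complex as it extrudes DNA loops, and pairs of such borders often touch each other as the corners of a domain. Kcnj2 and Kcnj16 encode inwardly rectifying potassium channels, Map2k6 encodes a kinase that activates p38 MAP kinases, and Sox9, on the far side of the edited boundary, encodes a transcription factor needed for cartilage. No gene annotation of mm9 was used: Kcnj2 was placed in the bin chr11:110920001-110930000 from general knowledge of that build. In the RefSeq gene order (GRCm38.p6), Map2k6 comes first, then 4 genes for long non-coding RNAs, then Kcnj16 and then Kcnj2, with 0 genes between the last pair.

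The promoter sequences of the genes are shown because the left border of the domain falls on the Kcnj2 bin. They are the 250 bases before each gene's first listed start, plus strand of chromosome 11, from RefSeq (GRCm38.p6). Their coordinates belong to that build and are not set beside the contact maps. Capitals mark matches, on either strand, to a CTCF core pattern (CCA, 2 bases of any kind, AG, 2 bases of any kind, GGC) and to the GC box (GGGCGG), which do not overlap each other here.
Kcnj2: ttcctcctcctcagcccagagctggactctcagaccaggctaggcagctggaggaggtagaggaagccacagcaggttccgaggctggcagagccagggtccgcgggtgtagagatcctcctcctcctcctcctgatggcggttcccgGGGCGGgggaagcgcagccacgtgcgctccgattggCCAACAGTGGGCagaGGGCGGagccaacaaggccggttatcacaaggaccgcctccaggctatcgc
Kcnj16: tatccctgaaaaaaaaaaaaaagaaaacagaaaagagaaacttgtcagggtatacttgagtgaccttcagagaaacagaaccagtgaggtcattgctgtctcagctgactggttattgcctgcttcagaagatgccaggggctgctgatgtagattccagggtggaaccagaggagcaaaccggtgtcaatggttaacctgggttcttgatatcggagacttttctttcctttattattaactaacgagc
Map2k6: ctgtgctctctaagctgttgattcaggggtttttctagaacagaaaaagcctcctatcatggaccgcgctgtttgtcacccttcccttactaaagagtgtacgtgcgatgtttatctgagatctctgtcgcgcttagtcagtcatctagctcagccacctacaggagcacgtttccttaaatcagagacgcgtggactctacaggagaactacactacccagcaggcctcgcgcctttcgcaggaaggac
The Kcnj2 promoter held 1 match to the CTCF core and 2 GC boxes, and 65.6% of its bases were G or C, with 14 CG dinucleotides. The first promoters of Kcnj16 (42.8% G or C, 3 CG dinucleotides) and Map2k6 (50.4%, 12 CG dinucleotides) held neither motif, while 1 of the 4 listed Kcnj16 promoters, the second, held a CTCF core match. The fourth Kcnj16 promoter and the second of the 3 listed Map2k6 promoters held 1 GC box each. Among 32851 mouse promoters of this length, 2.07% held the CTCF core, 32.7% a GC box, and 16.2% had at least the G and C content of Kcnj2. A match of letters describes the sequence and does not show binding.

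Depth ran from 3056502 raw contacts in InvC∆Bor to 9045698 in ∆BorC1-4, and members held 206854 to 652584 of them, which is 6.77% to 7.69% of each library. No member bin was left out by the coverage filter, which compared each bin with the same bin in the other libraries and not with other bins. The bin at 110.60 Mb was nevertheless thin in every library, at 4.93% to 5.80% of the median bin, so the block that contains it is named below where it appears. No test could be made, because each genotype was measured once. Intervals are at 95%, treat each read pair as independent and cover no error other than that of counting. As a measure of how libraries differ where nothing was edited, the same quantities were taken at positions in the unedited flanks of the map. That spread is not replicate error. Flank positions were taken at every bin, so the windows of neighbouring positions overlap and share most of their bin pairs. Counts of flank positions given below are therefore not counts of independent values.

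The border at Kcnj2 was present in all 8 libraries, at the same bin, and its depth differed between them. It was measured by the insulation score, the log2 of the mean balanced contact between the 200 kb left and the 200 kb right of a bin over the mean of that quantity along the map, so that a lower score means fewer contacts across the bin. The score at Kcnj2 was -0.41 in InvIntra, -0.43 in BorKnockIn, -0.54 in ∆BorC1, -0.57 in ∆BorC1-4, -0.60 in InvC∆Bor, -0.67 in InvC, -0.68 in ∆BorC1-2 and -0.79 in ∆CTCF. The shallowest border was thus in the libraries InvIntra and BorKnockIn and the deepest in ∆CTCF, a range of 0.38 on the log2 scale. At 79 positions of the left flank the median range over the 8 libraries was 0.09 and the largest 0.15. On the right flank it reached 0.41, which came from BorKnockIn, and without that library the maximum over both flanks was 0.18.

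On balanced values all 4 deletion libraries scored lower at Kcnj2 than InvIntra, by 0.13 (∆BorC1) to 0.38 (∆CTCF). Their median was -0.22 relative to InvIntra. The same difference stayed within 0.08 at every one of 194 flank positions. BorKnockIn differed from InvIntra by -0.02, and 153 of the 194 flank positions (58 of the 79 on the left) differed at least as much. On the right flank BorKnockIn positions were offset from those of the other libraries: its coverage profile correlated with that of InvIntra at 0.39 over 149 bins at the same position and at 0.89 when read 1 bin to the left. Its right-flank values, here and in the flank shares below, are therefore not taken at the same DNA. In the left side and in the Kcnj2 domain its profile correlated with InvIntra at 0.99 in the same bin. Among the deletions, ∆CTCF lay below ∆BorC1-4 by a difference of -0.22, against at most 0.17 at the flank positions. ∆BorC1-2 lay below ∆BorC1 (-0.15, flank maximum 0.09), yet ∆BorC1-4 lay above ∆BorC1-2 (0.12, flank maximum 0.08), so the scores did not follow the labels ∆BorC1, ∆BorC1-2 and ∆BorC1-4 in one direction. InvC∆Bor exceeded InvC by 0.06 on balanced values, and 13 of the 194 flank positions differed at least as much (flank maximum 0.106). The difference was larger on raw counts (0.141) and after thinning (0.143), for which no flank values were taken. BorKnockIn exceeded ∆BorC1 by 0.11, and 34 of the 194 flank positions (4 of the 79 on the left) differed at least as much. On raw counts the deletion median relative to InvIntra was -0.13, and after thinning to equal depth it was -0.11. ∆BorC1 was then close to InvIntra: just below it on raw counts (-0.210 against -0.202) and just above it after thinning (-0.214 against -0.219). On raw counts, after thinning and with the flank mean as the scale, BorKnockIn and not InvIntra had the highest score, while ∆CTCF had the lowest under each. Its distance from InvC was small on raw counts (-0.418 against -0.406) and after thinning (-0.422 against -0.407).

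**Figure D1:**
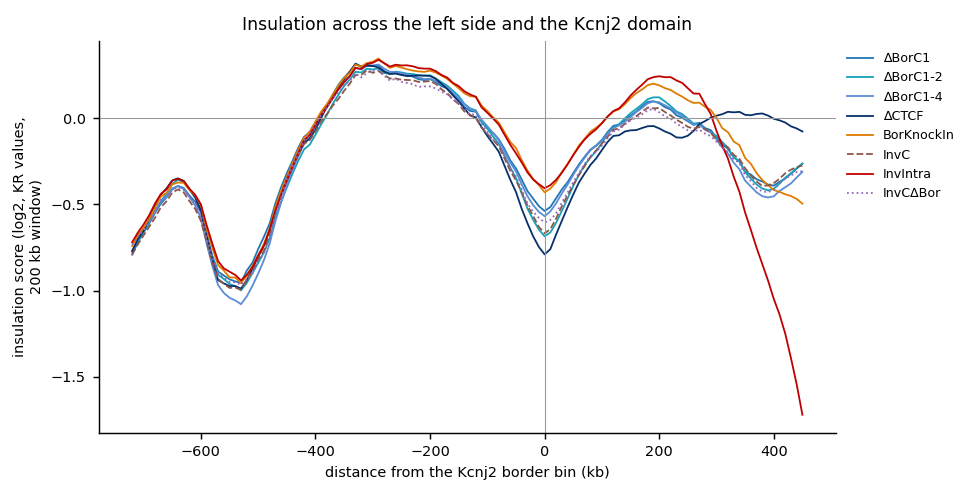
Insulation score (log2) of balanced contacts in a 200 kb window along the left side and the Kcnj2 domain, against the distance in kb from the Kcnj2 border bin, 1 line per library. All 8 lines have a dip at 0 kb, from -0.41 (InvIntra) to -0.79 (∆CTCF), with a deeper dip 530 kb to the left; the lines spread towards Kcnj2.

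A deeper dip lay at 110.39 Mb in all 8 libraries, with scores from -1.08 (∆BorC1-4) to -0.94 (InvIntra) and a range of only 0.14. Between the dips the score rose to a crest at 110.59 to 110.63 Mb, of 0.28 (InvC∆Bor) to 0.35 (BorKnockIn). Over the first 500 kb of the left side the largest range over libraries was 0.152, next to a largest range of 0.148 in the left flank. It widened to 0.33 in the last 200 kb before Kcnj2. The crest on the other side of Kcnj2, at 111.10 to 111.12 Mb, varied more, from -0.05 in ∆CTCF to 0.24 in InvIntra. Measured from this right crest, the depth of the Kcnj2 dip ran from 0.63 (BorKnockIn) to 0.81 (∆BorC1-2). From the left crest it ran from 0.75 (InvIntra) to 1.10 (∆CTCF). The order of libraries therefore depended in part on which side the dip was measured from. With raw counts in place of balanced values the Kcnj2 dip stayed within 1 bin in all 8 libraries, and the dip at 110.39 Mb did so in 2 of 8.

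A further dip appeared inside the Kcnj2 domain in 5 libraries, near 111.31 Mb. Its score there was -0.42 in ∆BorC1-2, -0.46 in ∆BorC1-4 and -0.43 in InvC∆Bor, with -0.39 at 111.32 Mb in ∆BorC1 and -0.39 at 111.30 Mb in InvC. ∆CTCF had no such dip, with a score of 0.00 at 111.32 Mb and a shallow minimum of -0.11 at 111.16 Mb. In BorKnockIn (-0.42 at 111.32 Mb) and InvIntra (-1.05) the score went on falling towards the right end of the domain. At 111.37 Mb it was -1.72 in InvIntra, -0.50 in BorKnockIn, -0.31 to -0.26 in the other libraries apart from ∆CTCF, and -0.08 in ∆CTCF. The libraries at the extremes of the right end were thus those at the extremes at Kcnj2, in opposite order: on balanced values scaled to the map mean, InvIntra had the lowest score at the right end and the highest at Kcnj2, and ∆CTCF the reverse. The highest place at Kcnj2 passed to BorKnockIn on raw counts, thinned counts and the flank mean. On the balanced scores BorKnockIn was next to InvIntra at both places. The opposite order did not hold throughout the rest: ∆BorC1 and ∆BorC1-2 both had -0.26 at the right end, but -0.54 and -0.68 at Kcnj2. Positions are given as in the maps, with build mm9, and BorKnockIn was offset from the other libraries on the right flank. The window at 111.37 Mb reaches past the Kcnj2 domain. Whether the inversion in InvIntra, or the edit in any other library, moved DNA near the right end was not tested.

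Counted as raw read pairs, contacts across the Kcnj2 border made up the largest share in InvIntra and the smallest in ∆CTCF. Of all contacts within and between the left side and the Kcnj2 domain, 32.6% crossed the border in InvIntra (exact Clopper-Pearson interval 32.5 to 32.7), or 200407 of them. BorKnockIn had 30.0% (29.9 to 30.1), ∆BorC1 29.4% (29.3 to 29.5), ∆BorC1-4 28.8% (28.7 to 28.9) and ∆BorC1-2 27.9% (27.8 to 28.1). InvC∆Bor had 28.3% (28.1 to 28.4), InvC 28.1% (28.0 to 28.3) and ∆CTCF 25.0% (24.9 to 25.1). Crossing contacts were therefore a smaller share in each of the other 7 libraries than in InvIntra, with the intervals apart. In the unedited flanks, too, the median ratio to InvIntra was below 1 for each of them, as given below. Relative to InvIntra BorKnockIn had a ratio of 0.920, ∆BorC1 of 0.902, ∆BorC1-4 of 0.885, InvC∆Bor of 0.867, InvC of 0.862, ∆BorC1-2 of 0.857 and ∆CTCF of 0.766.

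For pairs at least 100 kb apart these differences were smaller: the ratio was 0.921 for the deletion median over InvIntra and 0.917 for ∆CTCF over ∆BorC1-4. Short-range contacts differed between the libraries. Pairs under 100 kb apart were 29.8% of member contacts in InvIntra, against 36.6% in ∆CTCF and 32.5% to 34.0% in the others. In the flanks they were 39.9% in InvIntra, 44.6% in ∆CTCF and 42.0% to 42.6% in the others. With windows of 300 kb on each side, used at the border and in the flanks alike, the crossing share at Kcnj2 was 28.9% in InvIntra, 22.9% in ∆CTCF and 24.6% to 27.1% in the rest, and the highest library exceeded the lowest 1.26-fold. Over 156 flank positions the median of that ratio was 1.10 and the largest 1.20. InvIntra tended to have the larger share in the flanks as well. The median flank ratio to InvIntra was 0.915 for ∆CTCF, 0.942 for BorKnockIn, 0.948 for InvC∆Bor and 0.949 for InvC. It was 0.950 for ∆BorC1-2, 0.953 for ∆BorC1 and 0.959 for ∆BorC1-4. Part of each ratio at Kcnj2 was thus also seen where nothing was edited. The ratio of ∆CTCF to InvIntra, 0.791, lay below the lowest flank value of that pair, 0.834. The ratio of ∆BorC1-2, 0.850, lay below its lowest flank value of 0.904. For ∆BorC1 (0.901 against 0.915), InvC (0.881 against 0.890) and InvC∆Bor (0.881 against 0.888) the margin was small. For ∆BorC1-4 (0.911 against 0.908) and BorKnockIn (0.938 against 0.849) the border lay inside the flank range. ∆CTCF also lay below ∆BorC1-4, at 0.869 against a lowest flank value of 0.917, whereas InvC∆Bor over InvC, at 1.00, lay inside.

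Distance was taken out directly by setting each balanced value over the library's own mean at that distance. On this observed over expected scale the left side had nearly the same contacts with itself in every library, and the libraries differed in its contacts with the Kcnj2 domain. Within the left side BorKnockIn had a mean of 1.02, ∆CTCF, ∆BorC1 and InvIntra of 1.01, ∆BorC1-2 of 0.996, ∆BorC1-4 of 0.987, InvC of 0.979 and InvC∆Bor of 0.976. Between the left side and the Kcnj2 domain InvIntra had a mean of 1.66, BorKnockIn of 1.56, ∆BorC1 of 1.40, ∆BorC1-4 of 1.34, ∆BorC1-2 of 1.33, InvC of 1.32, InvC∆Bor of 1.28 and ∆CTCF of 1.18. All 8 libraries thus had more contact across the border than their own map average at these distances. InvIntra and BorKnockIn stood above the other 6. The deletion median was 0.802 times InvIntra, and ∆CTCF was 0.878 times ∆BorC1-4. Within the Kcnj2 domain the values ran from 0.940 (InvC∆Bor) to 1.08 (InvIntra), with a deletion median 0.901 times InvIntra. On raw counts the ratio of the deletion median to InvIntra across the border was 0.864. Balancing gives every bin the same total, so a balanced value is relative to all other contacts of its bins.

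**Figure D2:**
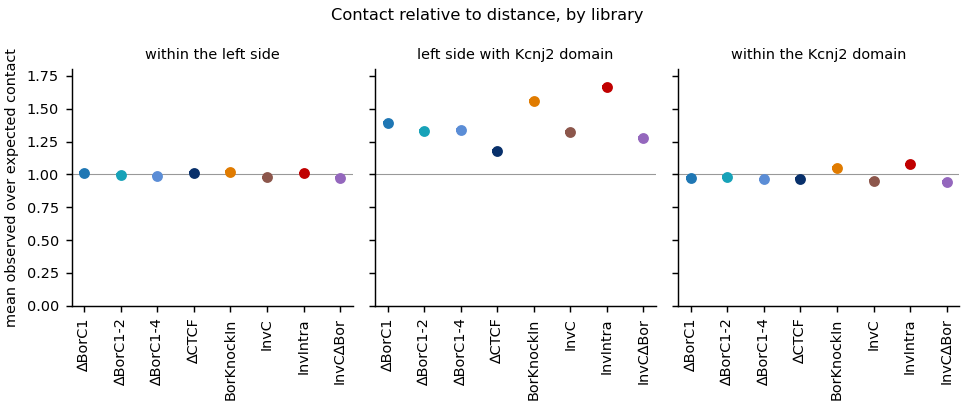
Mean observed over expected contact (balanced values, no unit) per library for pairs within the left side, pairs joining the left side to the Kcnj2 domain and pairs within the Kcnj2 domain. Counting intervals at 95% are smaller than the points. The middle panel spans 1.18 (∆CTCF) to 1.66 (InvIntra), while the left panel stays between 0.976 and 1.02.

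The excess across the border came from far pairs. For crossing pairs under 300 kb apart the observed over expected value was below 1 in all 8 libraries, from 0.652 in ∆CTCF to 0.814 in BorKnockIn. For pairs 500 kb and more apart InvIntra reached 2.01, BorKnockIn 1.87, ∆BorC1 1.66, ∆BorC1-2 and InvC 1.59, ∆BorC1-4 1.58, InvC∆Bor 1.51 and ∆CTCF 1.39. The deletion median relative to InvIntra was 0.879 for the near pairs and 0.836 for pairs 300 to 490 kb apart. In other words, near contacts across Kcnj2 were rarer than expected and far ones more frequent in each library. Pairs that crossed the dip at 110.39 Mb within the left side had values of 0.697 (∆BorC1-4) to 0.756 (∆BorC1), with InvIntra at 0.722 inside that range. On the insulation score, in contrast, every other library lay below InvIntra (-0.94) at that dip. The deletion libraries had -0.96 (∆BorC1), -0.99 (∆CTCF), -0.999 (∆BorC1-2) and -1.08 (∆BorC1-4). BorKnockIn had -0.96, InvC∆Bor -0.97 and InvC -0.995. The range over the 8 libraries there, 0.137, was below the largest in the left flank, 0.148.

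The member pairs were next compared as blocks of 50 kb. Of 217 member block pairs, 203 were 100 kb or more apart and held 100 or more contacts in every library, 78 within the left side and 125 across the border. A pair was counted as changed past 1.3-fold. Relative to InvIntra, the member pairs lower past this fold were 16 in ∆BorC1 (10.1% of all block pairs of the map and 0.164% of flank pairs were lower), 28 in ∆BorC1-2 (11% and 0.812%) and 17 in ∆BorC1-4 (8.62% and 0.162%). They were 71 in ∆CTCF (13.6% and 2.65%), 30 in InvC (15.1% and 0.492%), 37 in InvC∆Bor (6.26% and 0.339%) and 1 in BorKnockIn (9.13% and 4.4%). Every one of these pairs crossed the border, and 0 of the 78 pairs within the left side were lower. No member pair was higher past the fold in any of the 7 comparisons, against 11.7% to 14.7% of the map's block pairs and 0% to 1.3% of the flanks'.

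Read against the background, the member shares of 7.88% in ∆BorC1 and 8.37% in ∆BorC1-4 were near the map's own, which includes the edited interval. They were far above those of the flanks. ∆CTCF (35.0% of members) and InvC∆Bor (18.2%) exceeded both. ∆BorC1-2 (13.8%, against 11% of the map) and InvC (14.8%) were near the map's share and above that of the flanks. The median ratio of the crossing pairs was 0.964 for BorKnockIn, 0.880 for ∆BorC1, 0.856 for ∆BorC1-4, 0.834 for InvC, 0.821 for ∆BorC1-2, 0.819 for InvC∆Bor and 0.757 for ∆CTCF, beside 0.964 to 0.980 over all block pairs of the map. In these libraries other than BorKnockIn (92), 116 to 125 of the 125 crossing pairs were below 1, so the lower contact was spread over nearly all of them. Within the left side the median ratio was 0.970 to 1.01.

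Between the other libraries, ∆CTCF over ∆BorC1-4 had 21 member pairs lower (2.35% of the map, 0.828% of flanks) and 0 higher (2.79% and 0%), all across the border. InvC∆Bor over InvC had 3 higher (9.25% and 1.19%; 0 without the thin bin) and 1 lower (4.58% and 0.169%). BorKnockIn over ∆BorC1 had 3 higher (11.1% and 1.8%) and 0 lower (14.2% and 3.76%). ∆BorC1-2 over ∆BorC1 had 0 higher (0.44% and 0%) and 0 lower (0.659% and 0.164%). ∆BorC1-4 over ∆BorC1-2 likewise had 0 higher (0.481% and 0.812%) and 0 lower (0.262% and 0%), and InvC∆Bor over ∆BorC1 had 0 higher (5.8% and 1.36%) and 0 lower (5.62% and 0.339%). Past this fold, then, 0 member pairs separated ∆BorC1-2 from ∆BorC1 or from ∆BorC1-4. ∆CTCF was set against ∆BorC1-4 only.

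**Figure D3:**
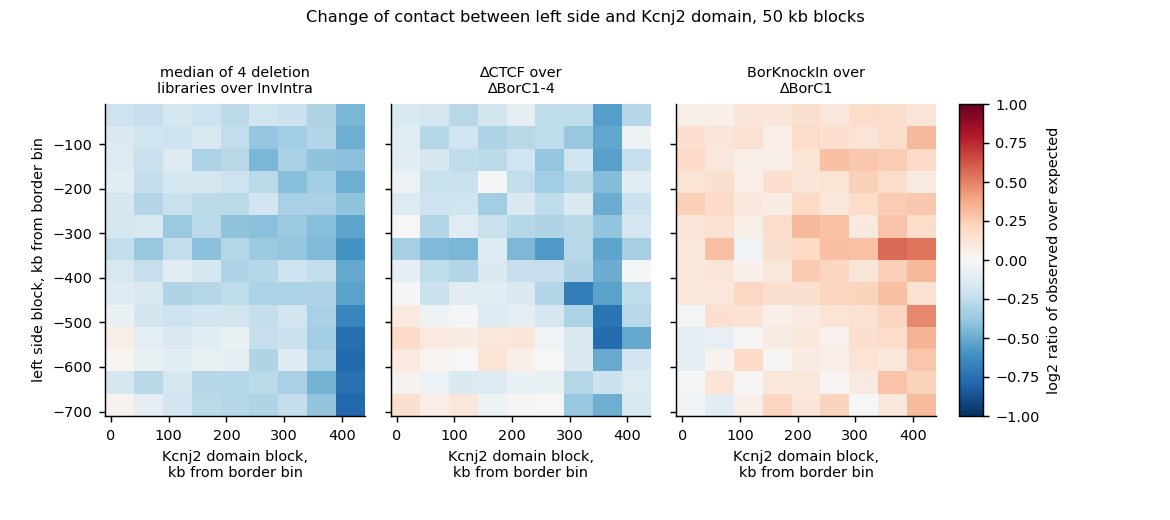
Log2 ratio of observed over expected contact for each 50 kb block of the left side (vertical axis, kb from the Kcnj2 border bin) with each 50 kb block of the Kcnj2 domain (horizontal axis), in 3 comparisons; blue is lower and red higher in the first-named. The last column of the first panel, the block farthest from Kcnj2, is the darkest blue, and in the second panel the column before it is.

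The difference grew with distance from Kcnj2 into its domain. The deletion median relative to InvIntra, for contact with the whole left side, was 0.932 for the block that holds Kcnj2 (110.91 to 110.96 Mb) and 0.878, 0.874, 0.856, 0.856, 0.827, 0.834 and 0.795 for the next 7 blocks. It was 0.654 for the block at 111.31 to 111.36 Mb, the nearest to the edited boundary. The Kcnj2 block's own contact with the left side was similar in all: InvIntra had 1.46, BorKnockIn 1.44, ∆BorC1 1.41, ∆BorC1-2 1.39, ∆CTCF 1.33, ∆BorC1-4 1.32, InvC 1.31 and InvC∆Bor 1.28. At 111.31 to 111.36 Mb InvIntra had 2.45, BorKnockIn 2.07, ∆BorC1 1.70, ∆BorC1-2 1.63, InvC 1.58, ∆BorC1-4 1.56, InvC∆Bor 1.498 and ∆CTCF 1.33. The spread over libraries was thus small at Kcnj2 and large at the other end of its domain. For ∆CTCF over ∆BorC1-4 the lowest block was 111.26 to 111.31 Mb, at 0.690, and the Kcnj2 block was at 1.01. Seen from the left side, no block stood out in this way: the deletion median relative to InvIntra ran from 0.751 to 0.836 over its 14 blocks.

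The strongest member contacts joined the block at 110.36 to 110.41 Mb, where the left dip lies, and its neighbour to both ends of the Kcnj2 domain. The 5 highest block pairs by median over libraries were this block with 111.26 to 111.31 Mb (median 3.67), with 111.31 to 111.36 Mb (3.25) and with the Kcnj2 block (2.99), and the block at 110.41 to 110.46 Mb with 111.26 to 111.31 Mb (3.06) and with the Kcnj2 block (2.77). The 5 lowest all joined the blocks at 110.26 to 110.36 Mb to those at 110.41 to 110.56 Mb, that is, across the dip at 110.39 Mb, with medians of 0.428 to 0.505. The same place in the left side was therefore a border for near contacts and an anchor for far ones.

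Along the domain, contact of the block at 110.36 to 110.41 Mb, in windows of 3 bins, had a first peak at 110.91 Mb, next to the Kcnj2 bin, in all 8 libraries. ∆CTCF reached 3.82 there, ∆BorC1-2 3.75, ∆BorC1 3.68, BorKnockIn 3.51, InvIntra 3.49, ∆BorC1-4 3.29, InvC∆Bor 3.24 and InvC 3.19. InvIntra lay inside the range of the deletion libraries, so this contact did not separate them. From 1.05 to 1.23 at 110.71 Mb the contact rose to this peak, and it fell to 1.63 to 1.93 inside the domain.

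A second peak lay at 111.30 Mb, and its height differed between libraries. InvIntra reached 6.63 (counting interval 6.34 to 6.94, at 111.31 Mb), BorKnockIn 6.30 (6.01 to 6.60), ∆BorC1 4.99 (4.72 to 5.27), ∆BorC1-2 4.51 (4.29 to 4.74), InvC 4.51 (4.25 to 4.78), ∆BorC1-4 4.48 (4.30 to 4.66) and InvC∆Bor 4.07 (3.78 to 4.38). In ∆CTCF there was no peak there, and the highest value in that part of the domain was 2.52 at 111.35 Mb (2.32 to 2.74). InvIntra and BorKnockIn were highest, the other 5 libraries other than ∆CTCF lay between, and ∆CTCF was lowest. This order was read from the heights themselves, with 1 library per genotype. The place lies inside the Kcnj2 domain, 90 kb left of the boundary bin. Its DNA was covered in ∆CTCF: the block at 111.26 to 111.31 Mb had 115% of the median bin's contacts in that library and 113% to 125% in the others. Relative to the median of the other libraries, coverage of its 10 bins from 111.26 to 111.36 Mb ran from 0.879 (the bin at 111.30 Mb) to 1.02, and coverage at this bin size does not show a small missing site.

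**Figure D4:**
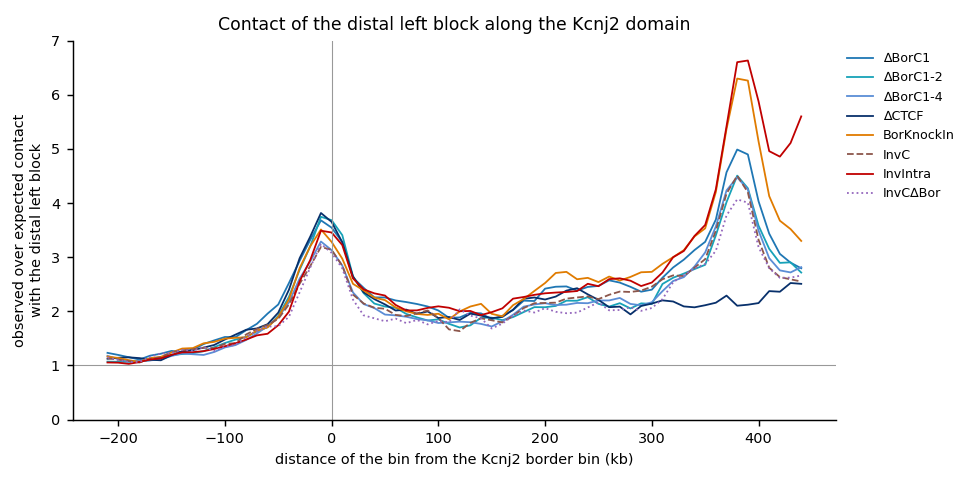
Observed over expected contact (no unit) of the left block at 110.36 to 110.41 Mb with windows of 3 bins from 200 kb left of the Kcnj2 border bin to the right end of the Kcnj2 domain, against the distance in kb from that bin, 1 line per library. All 8 lines peak next to 0 kb at 3.19 to 3.82, and a second peak about 380 kb to the right reaches 6.63 in InvIntra and 6.30 in BorKnockIn and is missing in ∆CTCF.

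For the block pair of 110.36 to 110.41 Mb with 111.26 to 111.31 Mb, ∆CTCF held 0.472 times the value of InvIntra (counting interval 0.439 to 0.508) and 0.587 times that of ∆BorC1-4 (0.547 to 0.631), from 937 read pairs. The other deletion libraries held 0.868 (∆BorC1), 0.770 (∆BorC1-2) and 0.803 (∆BorC1-4) of InvIntra, and BorKnockIn 0.987 (0.937 to 1.04). On raw counts the observed over expected value of this pair was 2.56 in ∆CTCF, 5.34 in InvIntra, 5.58 in BorKnockIn and 4.17 to 4.86 in the other 5. The order of ∆CTCF below all others did not depend on balancing. With 111.31 to 111.36 Mb the same left block had a value of 5.49 in InvIntra, 4.54 in BorKnockIn, 3.17 to 3.60 in the ∆BorC libraries, 3.09 in InvC, 2.98 in InvC∆Bor and 2.23 in ∆CTCF. Here BorKnockIn lay between InvIntra and the rest, at 0.827 of InvIntra (0.777 to 0.880) and 1.26 times ∆BorC1 (1.17 to 1.36).

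The 5 pairs with the lowest deletion median relative to InvIntra all joined the block at 111.31 to 111.36 Mb to 110.21 to 110.46 Mb, at ratios of 0.580, 0.583, 0.592, 0.596 and 0.636. The farthest of them, 110.21 to 110.26 Mb at 1100 kb, had a value of 2.95 in InvIntra, 1.53 to 1.93 in the ∆BorC libraries and 1.36 in ∆CTCF. The 5 pairs with the highest ratios, 1.06 to 1.12, all lay within the left side, and 3 of them had 110.36 to 110.41 Mb as one end. The highest was its contact with the last block before Kcnj2, 110.86 to 110.91 Mb: ∆BorC1 had 2.56, ∆CTCF 2.50, ∆BorC1-2 2.37 and ∆BorC1-4 2.26, against 2.16 in InvIntra, 2.38 in BorKnockIn, 2.19 in InvC and 2.10 in InvC∆Bor. All 4 deletion libraries were above InvIntra there, none past 1.3-fold.

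∆CTCF over ∆BorC1-4 was lowest for 110.36 to 110.41 Mb (0.587) and 110.41 to 110.46 Mb (0.602), both with 111.26 to 111.31 Mb, and for 110.46 to 110.51 Mb with 111.21 to 111.26 Mb (0.618). Its highest ratios, 1.26, 1.20 and 1.19, were within the left side, and the first pair of these involved the block at 110.56 to 110.61 Mb with the thin bin, as did the second. BorKnockIn over ∆BorC1 was highest for that thin block with 111.26 to 111.31 Mb (1.48) and 111.31 to 111.36 Mb (1.45), and for 110.41 to 110.46 Mb with 111.31 to 111.36 Mb (1.40). Its lowest ratios, 0.870 to 0.914, were within the left side, the lowest at a pair of the thin block. InvC∆Bor over InvC had its highest ratios, 1.48, 1.34 and 1.31, and 1 of its 3 lowest (0.837) at the thin block too. The other 2 lowest were 0.754 for 110.51 to 110.56 Mb with 111.21 to 111.26 Mb and 0.833 for 110.26 to 110.31 Mb with 111.16 to 111.21 Mb. Apart from pairs of the thin block, then, InvC∆Bor and InvC differed past 1.3-fold at 1 member pair.

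The contacts of the Kcnj2 domain were finally divided by where they led. Of its raw contact ends, the share that led to the left side was 27.8% for InvIntra, 25.2% for BorKnockIn, 22.7% for ∆BorC1, 21.9% for ∆BorC1-4, 21.4% for ∆BorC1-2, 21.2% for InvC, 20.5% for InvC∆Bor and 18.8% for ∆CTCF. The share that led beyond its right end, as far as the Sox9 bin, was 17.8% for InvIntra, 22.3% for BorKnockIn, 26.6% for ∆BorC1, 27.1% for ∆BorC1-4, 27.7% for ∆BorC1-2, 29.9% for ∆CTCF, 30.0% for InvC∆Bor and 31.6% for InvC. InvIntra and BorKnockIn were highest on the left and lowest on the right. ∆CTCF was lowest on the left but below both InvC libraries on the right, and InvC exceeded InvC∆Bor on both sides. These are parts of 1 whole, so a gain on one side lowers the other. The share that stayed inside the domain was 34.4% (InvC∆Bor) to 39.5% (BorKnockIn).

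**Figure D5:**
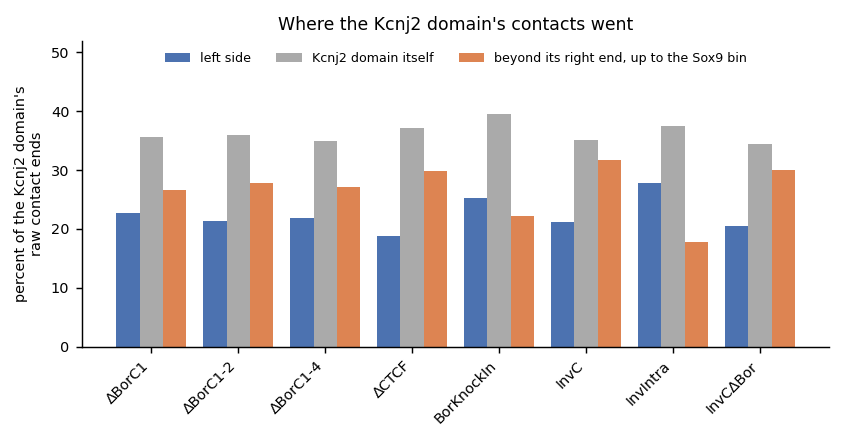
Percent of the Kcnj2 domain's raw contact ends (pairs at least 20 kb apart) that led to the left side, stayed in the Kcnj2 domain, or led past its right end up to the Sox9 bin, per library; contacts farther left and farther right are not drawn, so bars do not add up to the whole. The share to the left side falls from 27.8% (InvIntra) to 18.8% (∆CTCF).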

How the data were processed

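Capture Hi-C maps of 8 libraries were used, each deposited as raw counts (read pairs between bins of 10 kb) and as KR (Knight-Ruiz) balanced values, a signal the authors made from those counts and did not scale between libraries. Per the submitters' processing notes, Bowtie2 2.2.6 and Juicer were used with build mm9; the sources used here give no read filters. Groups came from the sample titles. The members, gene names and comparisons were chosen with earlier results of these data known, and ∆BorC1-2 over ∆BorC1, ∆BorC1-4 over ∆BorC1-2 and InvC∆Bor over ∆BorC1 were added later. Places named are the 5 highest and 5 lowest block pairs by median and by deletion median over InvIntra, the 3 highest and 3 lowest of the other comparisons, and the insulation minima. A bin was left out if, in any library, its share of contacts was under 0.1 of that bin's median share over libraries. This removed 4 bins, none among members. Flanks lay outside 110.20 to 113.33 Mb. Expected values were each library's mean at a distance. Ratio intervals were log-normal. Software was numpy 2.4.6, scipy 1.17.1, pandas 2.3.3 and matplotlib 3.10.9 under Python 3.11.15. On 6 simulated maps without domains, with the crossing contacts changed by a known factor, observed over expected ratios were recovered within 0.0047, scores within 0.017 and share ratios within 0.0024. Alternatives varied values, windows, distances, border position, blocks, folds and bins left out.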

Additional observations from a re-analysis of the deposited data

How the results depend on the processing

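No paired analysis was possible because each genotype has 1 library. Of 121 values recomputed under alternatives, 0 of those beyond their spread turned sign, 78 stayed within the counting interval, flank spread or 1.5 times the count, and 43 moved out of it. The crossing share ratios moved to 0.855 (deletion median over InvIntra), 0.850 (∆CTCF over ∆BorC1-4), 1.03 (BorKnockIn over ∆BorC1) and 0.911 (BorKnockIn over InvIntra) with KR values, to 0.921, 0.917, 1.01 and 0.960 for pairs at least 100 kb apart, to 0.855 and 0.850 for the first 2 and 0.913 for the last with the border 20 kb to the right, and to 1.04 and 0.938 for the last 2 with 300 kb on each side. Raw counts brought the deletion median minus InvIntra at the border to -0.13 and thinned raw counts to -0.11. BorKnockIn minus InvIntra (-0.02, within the flank spread) became 0.05 on raw counts, 0.07 on thinned counts and 0.01 with the flank mean. For crossing observed over expected, raw counts gave 0.864 (deletion median over InvIntra), 0.895 (∆CTCF over ∆BorC1-4), 0.999 (InvC∆Bor over InvC), 1.09 (BorKnockIn over ∆BorC1) and 0.988 (BorKnockIn over InvIntra), the flank expectation gave 0.913 (∆CTCF over ∆BorC1-4), 0.950 (InvC∆Bor over InvC) and 0.961 (BorKnockIn over InvIntra), and no bins left out gave 0.809 for the deletion median. Of 27 block pairs lower past 1.3-fold in the deletion median, 0 of 49 were left with 100 kb blocks, which do not reach the domain's right end, 13 with raw counts and 6 past 1.5-fold. The 21 for ∆CTCF over ∆BorC1-4 became 4 with 100 kb blocks and 3 past 1.5-fold, the 1 lower and the 3 higher for InvC∆Bor over InvC became 0 under each of these and on raw counts, the 1 lower for BorKnockIn over InvIntra became 0 with 100 kb blocks and past 1.5-fold, and the 3 higher for BorKnockIn over ∆BorC1 became 0, 0 and 1. On raw counts the lowest score of the left side lay at the 110.39 Mb dip in 0 of 8 libraries, and the lowest within 100 kb of it lay there in 2. The score on observed over expected values, and leaving out the thin bin, were chosen after seeing the data; without that bin the 3 higher for InvC∆Bor over InvC became 0, and no other value moved. The comparisons rest on InvIntra, 1 mutant library; the cause of these shifts was not tested.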
